A study of Homo sapiens with 20 samples.

Results

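The 6 anti-IGF2BP3 PAR-CLIP libraries from unstressed HCT116 cells were examined, of 20 libraries in the series. They were chosen by their labels: 3 libraries from cells given DMSO and 3 from cells given PBS, with the cluster list of each. HCT116 is a human colorectal carcinoma line, and all groups used a derivative with the genotype Tet-OsTIR1-PURO, which makes the OsTIR1 protein conditionally. Every library came from cells labelled with 100 µM 4-thiouridine for 15 h. DMSO, the control of the tunicamycin samples, was given at 1:1000 for 4 h, and PBS, the control of the arsenite samples, at 1:1000 for 2 h. Cells of 5 dishes were pooled per condition. Whether the 3 libraries of a vehicle came from separate cultures is not given in the labels, so p-values measure the spread between these libraries, which may be technical. The library names put PBS replicates 1 to 3 in set S143, DMSO replicates 1 and 2 in S142 and DMSO replicate 3 in S141. Vehicle, exposure time and library set therefore changed together and cannot be told apart. The protocol also names more than 1 RNase concentration without assigning them to libraries.

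IGF2BP3 is an RNA-binding protein with RNA recognition motif and KH domains. It is abundant in embryonic tissue and in many tumours, binds mostly mature mRNAs, often in their 3′ untranslated regions, and is known for effects on their stability, localization and translation. In PAR-CLIP, 4-thiouridine in RNA is joined by ultraviolet light to bound protein, and the joined base shows in sequencing as a T-to-C conversion. A cluster is a stretch of overlapping reads with such conversions. More reads on an RNA can mean more RNA or more binding of it, and RNA levels were not analysed here.

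Some of the mRNA regions with the strongest signals are shown first, because they carried the largest or the most different signals. Each is a 30-base stretch at or next to the read maximum of the strongest cluster in DMSO replicate 3, in hg38 coordinates, written 5′ to 3′ on the transcribed strand. Capitals mark CAT followed by A, C or T, and ACAC or CACA, the letters searched as candidate IGF2BP words. These stretches were chosen after the values were known.
CDKN1A, chr6:36686705-36686734, plus strand: aaggggaagggACACACAagaagaagggca
EEF2, chr19:3976443-3976472, minus strand: ggagactgtcccgACACAgcgacgctcccc
CYB5B, chr16:69462430-69462459, plus strand: ttgctgggCATAttggattttaccCATCat
PAICS, chr4:56460703-56460732, plus strand: gctCACACctacgatCACAgcacttcggga
KITLG, chr12:88495901-88495930, minus strand: gaCATTatgtgaatatcccttgccaatttt
HMGA1, chr6:34246065-34246094, plus strand: ctgcagcagagtgagcaagggggcccaaat
EGR1, chr5:138467425-138467454, plus strand: aaccggcccagcaagacgcccccccacgaa
FTL, chr19:48965491-48965520, plus strand: cttcttgccaaccaaccatgagctcccaga
RPL23, chr17:38853707-38853736, minus strand: cttttttcttttttccggcgttcaagatgt
The first 6 belong to genes with many reads in all 6 libraries, and the last 3 to genes that differed between the vehicles. The searched words were present in 5 of these 9 stretches and absent from those of HMGA1, EGR1, FTL and RPL23. The 9 were not picked evenly: of the 33 stretches read in the same way, 12 held a word, with 10 of the 22 from the genes with most reads and 2 of the 11 from the genes with the lowest p.

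The depth differed more within a vehicle than between the vehicles. Total gene counts were 374238, 960565 and 1287291 in DMSO replicates 1 to 3, and 423906, 130478 and 403352 in PBS replicates 1 to 3. The cluster lists held 14399, 40065 and 51825 clusters in DMSO and 16430, 3579 and 15652 in PBS, so PBS replicate 2 was the shallowest library by both measures. All 15 pairs of libraries differed beyond sampling noise in a chi-square test over the 2951 tested genes whose counts averaged 50 or more. The IgG libraries of the same 2 vehicles, 1 of each, held 7864 (DMSO) and 17503 (PBS) gene counts and 43 and 93 clusters. By library name the DMSO IgG library is in set S141, with DMSO replicate 3, and the PBS IgG library is in S143. The IgG list attached to the PBS sample carries the name of the arsenite IgG library, and the attachment was followed. Of 12 epithelial colorectal markers, 8 had a cluster in at least 1 library and KRT8 had one in all 6, while KRT20, VIL1, CLDN3 and LGALS4 had none. None of 7 fibroblast, 7 leukocyte and 5 endothelial markers had a cluster.

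Merging the 141950 clusters of the 6 lists gave 54779 regions. More than any other group, 50.4%, were in a single list, and 2034 regions (3.71%) were in all 6. These 2034 shared regions had a median length of 243 bases. They took 93.6% of the cluster reads of PBS replicate 2, 58.9% and 59.3% of those of PBS replicates 1 and 3, and 60.8%, 44.5% and 41.4% in DMSO replicates 1 to 3. The share was thus lowest in the deepest libraries. RefSeq gene spans (assembly GRCh38.p14) named 92.9% of all clusters, and 91.4% of the named clusters lay in protein-coding genes and 1.88% in lncRNA genes. Clusters were found in 8712 genes, of which 1362 had a cluster in all 6 lists, and 1206 named genes had at least 1 shared region. In a comparison of lists, 98.1% of the regions of PBS replicate 2 were also in DMSO replicate 3, but these made 5.4% of the regions of DMSO replicate 3.

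The genes with most recovered reads at baseline were led by PABPC1 and HMGA1 in the mean of the 6 libraries. Values are CPM, the scaled read counts, that is, reads in the shared regions of a gene per 1e6 such reads over the named genes, scaled by the trimmed mean of M-values (TMM). They are not per length, so the ranks below are ranks of recovered reads. PABPC1, the cytoplasmic poly(A)-binding protein, led with 23530, 18850 and 17360 CPM in DMSO and 22190, 23590 and 22720 CPM in PBS. Its reads came from 14 shared regions, and the libraries of the vehicles overlapped. HMGA1, an architectural chromatin protein whose mRNA is a known IGF2BP target, came second with 14610, 12920 and 13050 CPM in DMSO and 17040, 20260 and 16700 CPM in PBS. All of its shared reads were in 1 region of 1384 bases, chr6:34244844-34246227, which ends 4 bases before the annotated gene end. PBS was higher in every library, but the log2 fold change (DMSO minus PBS) of -0.41 ± 0.10 (SE) did not pass the test (edgeR adjusted p = 0.0898).

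CDKN1A, the cyclin-dependent kinase inhibitor p21, had 14980, 12080 and 11390 CPM in DMSO and 13830, 15890 and 15530 CPM in PBS, in 1 region of 1638 bases at the gene end. KITLG, the ligand of the KIT receptor, had 13230, 12890 and 13360 CPM in DMSO and 13580, 12640 and 14390 CPM in PBS. DCBLD2, a transmembrane receptor, had 13240, 11520 and 12750 CPM in DMSO and 12740, 12510 and 13160 CPM in PBS. The vehicles overlapped for all 3 of these genes. KITLG and DCBLD2 were the steadiest of the 5 leading genes, with log2 fold changes of -0.04 ± 0.10 and -0.04 ± 0.10, and their reads were spread over 6 and 7 shared regions. The 6 regions of KITLG all ended within 4253 bases of the gene end, and their log2 fold changes lay between -0.30 and 0.25.

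Among the next genes, TUBA1B (an alpha-tubulin) averaged 10050 ± 1640 CPM in DMSO and 11840 ± 570 CPM in PBS (SD, n = 3). CYB5B, an outer mitochondrial membrane cytochrome b5, averaged 9945 ± 958 and 11420 ± 934 CPM. EEF2, the translation elongation factor that moves the ribosome along the mRNA, averaged 7517 ± 1180 and 10720 ± 1500 CPM. CCND1, which encodes cyclin D1, averaged 9472 ± 636 and 8088 ± 905 CPM. TMED2, a cargo receptor of the secretory pathway, averaged 7765 ± 678 and 9020 ± 413 CPM. EREG, the growth factor epiregulin, averaged 7816 ± 1370 and 8901 ± 1040 CPM. ERRFI1, a feedback inhibitor of the EGF receptor, averaged 7776 ± 1900 and 7284 ± 1240 CPM, and PAICS, an enzyme of purine synthesis, 6939 ± 308 and 7751 ± 1100 CPM. None of these 8 genes passed the test between the vehicles. EEF2 and TMED2 were higher in every PBS library than in any DMSO library, and the other 6 overlapped. For TMED2 the nearest libraries were almost equal, with 8545 CPM in DMSO replicate 1 and 8548 CPM in PBS replicate 1.

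**Figure D1:**
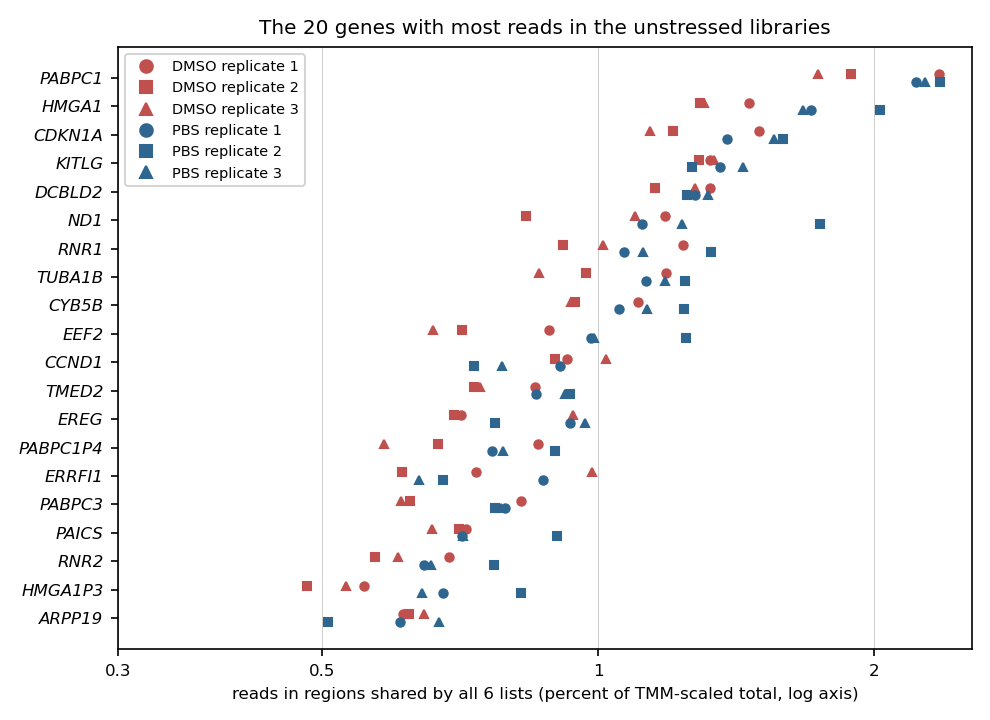
Reads in regions shared by all 6 cluster lists for the 20 named genes with the highest mean, as percent of the TMM-scaled total on a log axis, with 1 point per library (DMSO red, PBS blue). PABPC1 leads in all 6 libraries, while the order of other genes shifts: CCND1 averages more than EEF2 in DMSO and less in PBS. The PBS points lie to the right of the DMSO points for HMGA1, EEF2, TMED2 and HMGA1P3. For TMED2 the nearest points of the vehicles almost coincide.

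Mitochondrial RNA was also recovered. The region that runs over the end of the 16S rRNA gene RNR2 and ND1, a complex I subunit, was named ND1 and had 11170, 7955 and 10360 CPM in DMSO and 10510, 15950 and 11640 CPM in PBS, here relative to the reads in all shared regions. Clusters on the mitochondrial chromosome took 2.51% ± 0.638 of all cluster reads in DMSO and 3.89% ± 1.39 in PBS, with 5.49% in PBS replicate 2 alone. Pseudogenes took 5.31% ± 0.386 of cluster reads in DMSO and 6.18% ± 0.456 in PBS. PABPC1P4, PABPC3 and HMGA1P3 rank among the 20 leading genes and are near copies of PABPC1 and HMGA1, so the split of reads between them is uncertain. The same holds for TUBA1B and TUBA1C, BZW1 and BZW1P2, and FTL and FTLP3.

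Set per base of region, which allows regions to be compared, the order changed. A 158-base region of PABPC1 had a mean of 30.1 CPM per base over the 6 libraries, and a 278-base region of the same gene had 27.1. The TUBA1B region at chr12:49127781-49127980 had 28.1 CPM per base, with 32, 26.4 and 22 in DMSO and 28, 30 and 30 in PBS. The EEF2 region at chr19:3976066-3976600 had 14.9 and the CYB5B region at chr16:69462430-69463031 had 12.5 CPM per base. Short regions thus carried the densest signal, and among regions averaging 50 or more reads the 20 densest included 2 of PABPC1, 2 of PABPC1P4, 2 of HMGA1P3 and 1 of PABPC3.

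IgG recovered few clusters, and part of them lay at the strongest sites. Of the 2034 shared regions, 24 (1.18%) overlapped a cluster of the DMSO IgG list and 36 (1.77%) a cluster of the PBS IgG list. These held 27 of the 43 and 41 of the 93 IgG clusters. The leading regions of HMGA1, CDKN1A, EEF2 and TUBA1B had at least 1 DMSO IgG cluster, while those of TMED2, DCBLD2 and PAICS had none in either list. Depth limits this comparison, since the IgG totals were far below those of the antibody libraries.

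The mRNAs of the IGF2BP family itself were near the lower limit of recovery. IGF2BP3 had 2, 12 and 15 clusters in DMSO and 5, 0 and 3 in PBS, with 11, 104 and 176 reads in DMSO and 29, 0 and 23 in PBS. IGF2BP2 had 0, 7 and 10 clusters in DMSO and 0, 0 and 2 in PBS. IGF2BP1 had no cluster in any of the 6 lists. The counts of IGF2BP3 followed the depth of the libraries within each vehicle. Those of IGF2BP2 did so in DMSO but not in PBS, where replicate 1, the deepest, had none. None of the 3 genes had a shared region to test. Of 16 mRNAs fixed as known IGF2BP targets, 13 had a cluster in at least 1 list and 9 in all 6, among them HMGA1, HMGA2, CCND1, CD44, CDK6, ACTB, CCNG1 and MYC.

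Clusters concentrated at the 3′ ends of genes in every library. Over protein-coding genes of known strand, 66.2% ± 0.379 of cluster reads in DMSO and 67.6% ± 1.27 in PBS lay in the last 10% of the gene span, introns included. The first 10% held 1.33% ± 0.12 and 1.24% ± 0.26 of clusters. The strongest shared region lay within 3000 bases of the gene end in 659 of 877 such genes (75.1%) and within 1000 bases of the gene start in 10 (1.14%). By number, 61.8% ± 3.95 of clusters in DMSO and 68% ± 3.67 in PBS lay within 3000 bases of the gene end. This share was lowest in the deepest library (58.9% in DMSO replicate 3) and highest in the shallowest (72.2% in PBS replicate 2). No exon or untranslated region annotation was used, so these are distances along the gene span only.

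**Figure D2:**
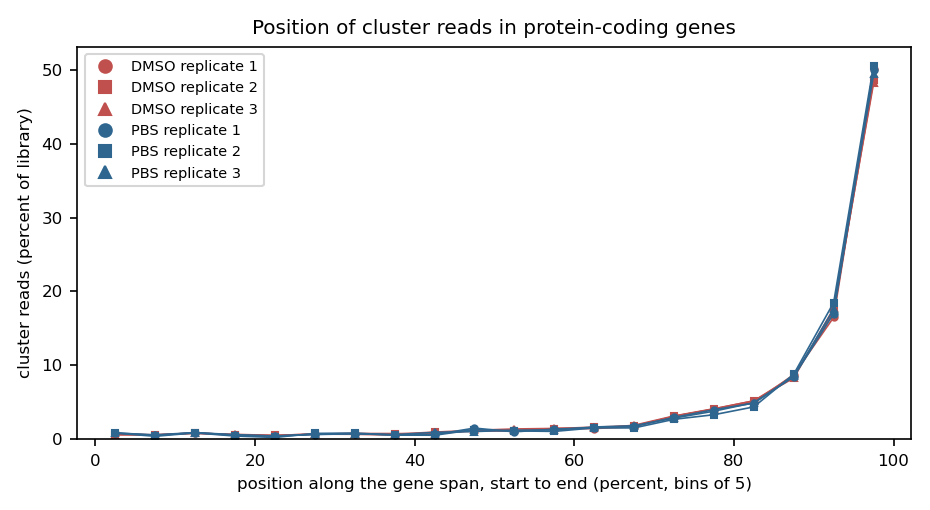
Share of cluster reads (percent of the library's reads in protein-coding genes of known strand) along the gene span in bins of 5 percent, with 1 line per library (DMSO red, PBS blue). The 6 lines lie almost on each other and rise steeply over the last 10%, which holds 66.2% of DMSO and 67.6% of PBS reads on average.

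The sequence content of the clusters was also close between the vehicles. CAT followed by A, C or T was present in 64.9%, 64.6% and 64.2% of clusters in DMSO and in 63.8%, 65% and 64.5% in PBS. In the IgG lists the share was 30.2% (DMSO) and 33.3% (PBS), from 43 and 93 clusters. CACA was present in 30% ± 0.184 of clusters in DMSO and 30% ± 0.799 in PBS, against 14% and 12.9% in the IgG lists, and ACAC in 21.5% ± 0.302 and 21% ± 0.315, against 6.98% and 10.8%. Lengths of IgG clusters were not matched to these. Searches were on the transcribed strand as deposited, and ACAC and CACA can overlap. Of all 4-letter words, GGGG (2.29 times its expectation from the base shares of the clusters, mean of 6 libraries), CAGC (2.17), TGGG (2.16) and GCAG (2.13) ranked highest. CACA ranked 12th of 256 words at 1.87, CATT 43rd at 1.44, ACAC 77th at 1.26 and CATA, at 0.952, was below its expectation. The words with CG ranked lowest, down to 0.126 for CGCG.

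TTTT separated the vehicles in whole clusters, while in windows of equal length the libraries overlapped. It was present in 38.3%, 39.8% and 39.7% of clusters in DMSO and 36.1%, 34.6% and 35.9% in PBS, with no overlap. Within 31 bases centred on the read maximum, over clusters that hold that window, the values were 18.6%, 19% and 19% in DMSO and 19.4%, 19.5% and 18.3% in PBS, which overlap. GGC and GGAC, as well as TGTA, were also more frequent in DMSO on average in whole clusters, and so were the AU-rich word ATTTA and the polyadenylation signal AATAAA. In the 31-base windows their mean shares were 23.9% and 23.8% for GGC, 7.59% and 7.37% for GGAC, 12.8% and 12.9% for TGTA, 4.43% and 3.81% for ATTTA and 1.19% and 1.41% for AATAAA, in DMSO and PBS respectively.

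A set of 7 library measures were compared by an exact two-sided permutation test, adjusted over the set by the Benjamini-Hochberg method. With 3 against 3 libraries the smallest possible p is 0.1, so no measure could pass 0.05. The median cluster length was 49, 50 and 52 bases in DMSO and 48, 45 and 47 in PBS (exact permutation p = 0.1, adjusted p = 0.233). The groups did not overlap, and length moved with depth: when each library was cut to its 3579 most-read clusters, the medians were 87, 148 and 180 bases in DMSO and 90, 45 and 88 in PBS, which overlap. The part of depth in the difference was not tested. The GC content of clusters was 42.4%, 42.3% and 42.6% in DMSO and 43%, 43.2% and 42.9% in PBS, lower in every DMSO library (exact permutation p = 0.1, adjusted p = 0.233). At equal cluster number it was 42.3%, 42%, 42.2% in DMSO and 42.6%, 43.2% and 42.8% in PBS, again without overlap. Genes with at least 1 count at a common depth of 130478 counts numbered 9986, 9874 and 9868 in DMSO and 10142, 9994 and 10129 in PBS (exact permutation p = 0.1, adjusted p = 0.233). The groups did not overlap, but PBS replicate 2, which sets the common depth, and DMSO replicate 1 were almost equal.

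The other 4 measures overlapped between the vehicles. T-to-C conversions made 7.99%, 7.72% and 7.79% of conversion plus non-conversion events in DMSO and 7.97%, 8.13% and 7.95% in PBS (exact permutation p = 0.3, adjusted p = 0.35). The lists held 38.5, 41.7 and 40.3 clusters per 1000 gene counts in DMSO and 38.8, 27.4 and 38.8 in PBS (exact permutation p = 0.3, adjusted p = 0.35). The difference of 5.15 clusters fell to 1.37 without PBS replicate 2, the library of lowest depth. Median reads per cluster were 8, 8 and 9 in DMSO and 8, 7 and 8 in PBS (exact permutation p = 0.6). The 100 genes with most counts took 16.3%, 16% and 16.6% of the counts in DMSO and 16.5%, 16.7% and 16.5% in PBS (exact permutation p = 0.3).

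Between the vehicles the gene counts differed little. In the table of all genes, 92 of 6352 tested (1.45%) passed an adjusted p of 0.05 in edgeR's quasi-likelihood test, 32 higher and 60 lower in DMSO, and 892 (14%) had an unadjusted p under 0.05. The estimated fold change was under 2-fold for 99.5% of the genes tested. Of the 92, 8 were at least 2-fold higher and 7 at least 2-fold lower. The number called fell to 12 without PBS replicate 3, 35 without DMSO replicate 2 and 40 without PBS replicate 1, and rose to 123 without PBS replicate 2, the shallowest library. DESeq2 called 29. Without a filter on low counts the split turned to 64 higher and 24 lower.

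By the biological coefficient of variation, pairs of libraries were more alike within a vehicle than across vehicles. The coefficient of variation, the spread of a gene beyond counting noise, was 3.89% to 7.11% in the 6 pairs within a vehicle and 8.29% to 11.1% in the 9 pairs across vehicles, over 2951 genes. The pair DMSO replicates 1 and 2, of set S142, had the lowest value, 3.89%. DMSO replicate 3, of set S141, stood at 7.08% and 6.21% from them, which is under the lowest value across vehicles. Other measures of the same pairs overlapped. Pearson's r of log2 CPM was 0.914 to 0.982 within a vehicle and 0.900 to 0.964 across vehicles, and the chi-square per gene was 1.23 to 2.28 within and 1.65 to 2.81 across.

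Entries of that table could not be paired with symbols, so an entry can be the same gene as one named below. Calls by identifier and calls by symbol are therefore not separate evidence. Of the entries, 4 are given by identifier. ENSG00000087086_15 had 360.2, 384.1 and 379.8 CPM in DMSO and 626.6, 621.3 and 655.7 in PBS, which gives -0.76 ± 0.10 on the log2 scale (SE, edgeR adjusted p = 2.3e-07). It kept its call in all 15 alternatives. The IgG libraries held 10 of 7864 counts in DMSO and 14 of 17503 in PBS for it, or 1272 CPM (95% exact Poisson interval 610 to 2339) and 800 CPM (437 to 1342), by library totals. The DMSO interval lies above its antibody values in DMSO, and the PBS interval covers those in PBS. ENSG00000103335_22 had 112.6, 104 and 120.9 CPM in DMSO and 203.9, 204.4 and 162.6 in PBS (log2 fold change -0.72 ± 0.16, edgeR adjusted p = 0.00845), and kept its call in 12 of 15 alternatives. It had 3 and 2 IgG counts, or 381 CPM (78.7 to 1115) in DMSO and 114 CPM (13.8 to 413) in PBS. These intervals cover its antibody values. ENSG00000120738_8 was higher in DMSO, with 1387, 1253 and 2327 CPM against 634.1, 1087 and 1002 in PBS (log2 fold change 0.95 ± 0.12, edgeR adjusted p = 3.1e-07). It kept its call in 13 of 15 alternatives and lost it with DESeq2 (adjusted p = 0.245) and with edgeR's robust variance moderation (adjusted p = 0.388). Without DMSO replicate 3 its log2 fold change was 0.60. Its IgG counts were 25 in DMSO and 17 in PBS, or 3179 CPM (2057 to 4693) and 971 CPM (566 to 1555). The IgG level was thus also higher in DMSO, with 1 IgG library per vehicle. The DMSO interval lies above the antibody values of DMSO replicates 1 and 2 and covers that of replicate 3. The PBS interval covers the antibody values in PBS. ENSG00000164086_10 had 115.4, 119.3 and 137.3 CPM against 59.7, 89.9 and 83.9 (log2 fold change 0.77 ± 0.20, edgeR adjusted p = 0.029). It kept its call in 8 of the 14 alternatives that gave it an adjusted p. Its IgG counts were 1 and 0, or 127 CPM (3.22 to 708) in DMSO and 0 CPM (0 to 211) in PBS, and these intervals also cover its antibody values. The part of the IgG background in these 4 differences was not tested. The vehicles did not overlap for any of the 4, by the rule that chose them.

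To put symbols on the difference, the reads of the shared regions were summed per named gene, a test added after the files had been seen. Of 1206 genes, 6 passed (0.498%): EGR1 and SKI were higher in DMSO, and FTL, RPL23, RACK1 and PFN1 were lower. The libraries of the vehicles did not overlap in 258 genes (21.4%), 131 higher in DMSO (10.9%) and 127 lower (10.5%).

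EGR1, an immediate early transcription factor induced by growth and stress signals, had 3623, 2879 and 5203 CPM in DMSO and 1502, 1375 and 2203 CPM in PBS. All DMSO libraries were above all PBS libraries, and DMSO replicate 3, the library of set S141, was the highest. The log2 fold change was 1.17 ± 0.20 (SE), or 2.25-fold (edgeR adjusted p = 0.0152). Without DMSO replicate 3 it was 0.89 and did not pass. Its 3 shared regions had log2 fold changes of 1.08 at chr5:138466753-138467244, 1.26 at chr5:138467258-138467860 and 1.16 at chr5:138468120-138468771, each without overlap and each short of the threshold on its own (edgeR adjusted p between 0.0708 and 0.0877). No IgG cluster of either vehicle lay in them. The IgG lists held only 43 (DMSO) and 93 (PBS) clusters, so this cannot show that background was absent. IgG gene counts could not be looked up by symbol. An identifier given above, with IgG levels that reach or pass its antibody values, can be this gene.

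SKI, a transcriptional co-repressor of TGF-beta signalling, had 676, 626.2 and 638.2 CPM in DMSO and 323, 502.4 and 264.4 in PBS. DMSO was higher in every library, with PBS replicate 2 the nearest (log2 fold change 0.97 ± 0.21, edgeR adjusted p = 0.0414). The stronger of its 2 shared regions, chr1:2307878-2308260, had 523.1, 476.9 and 442.8 CPM against 268.6, 241.6 and 211.3.

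FTL, the light chain of the iron store ferritin, had 823.3, 1047 and 1067 CPM in DMSO and 1713, 1481 and 1834 in PBS. Every DMSO library was lower (log2 fold change -0.78 ± 0.14, edgeR adjusted p = 0.0152). The difference was larger in the region that starts 53 bases into the gene, chr19:48965362-48965608, than in the region that ends 15 bases before the gene end. The first had 433.2, 535.4 and 546.3 CPM in DMSO and 947, 990.7 and 1094 in PBS, and was 1 of the 2 regions called of 2034 (0.0983%), at -0.98 ± 0.17 on the log2 scale (edgeR adjusted p = 0.0364). The second had a log2 fold change of -0.45 ± 0.21 and its vehicles overlapped. The difference between the 2 regions was not tested. FTH1, the ferritin heavy chain, was also lower in every DMSO library, at 294.7, 389.8 and 328.4 CPM against 533.3, 661.1 and 424.6, without passing the test (edgeR adjusted p = 0.222).

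RPL23, a protein of the large ribosomal subunit, had 944.6, 727.5 and 780.3 CPM in DMSO and 1359, 1930 and 1386 in PBS. All DMSO libraries were lower (log2 fold change -0.90 ± 0.16, edgeR adjusted p = 0.0152). The other region called was in this gene: a 42-base region at chr17:38853696-38853737 with 367.8, 283.8 and 270.9 CPM in DMSO and 713.8, 724.9 and 588.7 in PBS (log2 fold change -1.16 ± 0.20, edgeR adjusted p = 0.0364). Its pyrimidine-rich stretch is the one printed above. The log2 fold changes of the 4 shared regions of the gene lay between -1.16 and -0.52. No IgG cluster lay in the called regions of RPL23 and FTL, but the small IgG lists cannot show that background was absent there. As for EGR1, IgG gene counts could not be looked up by symbol, and an identifier given above can be either gene. Across all 2034 regions 254 had an unadjusted p under 0.05.

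RACK1, a scaffold protein on the small ribosomal subunit, had 416, 426.7 and 465.8 CPM in DMSO and 848.7, 687.5 and 841.1 in PBS. The DMSO values were close together and below all PBS values (log2 fold change -0.89 ± 0.17, edgeR adjusted p = 0.0152). Its 2 shared regions stood at -1.01 and -0.76, and the second, whose libraries overlapped, covers the annotated gene start. PFN1, the actin-binding protein profilin, had 875.3, 752 and 722 CPM in DMSO and 1202, 1269 and 1346 in PBS (log2 fold change -0.72 ± 0.14, edgeR adjusted p = 0.0246). Its single shared region ends 36 bases before the gene end.

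**Figure D3:**
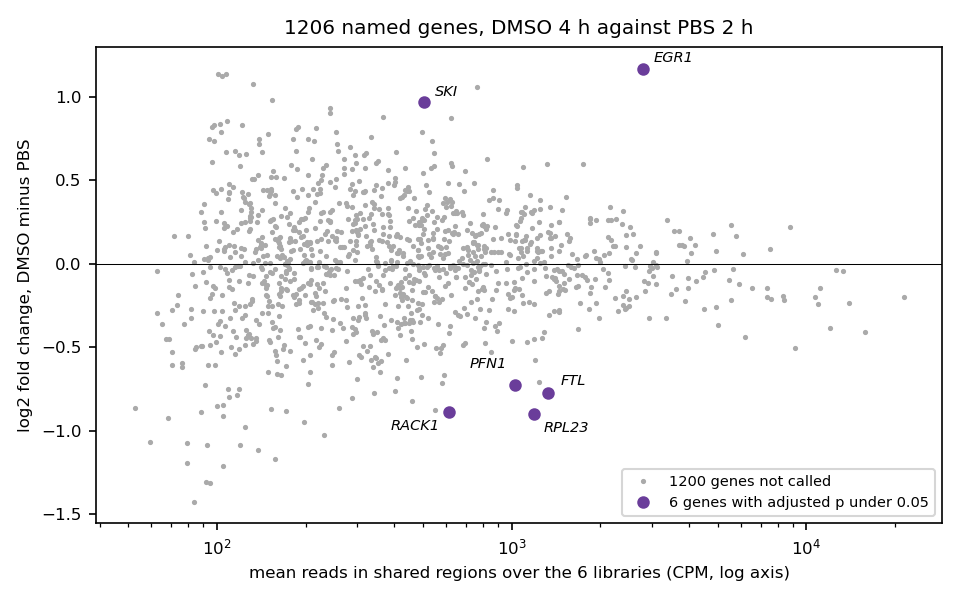
Log2 fold change (DMSO minus PBS) against the mean CPM of the shared regions (log axis) for 1206 named genes, with the 6 genes called in purple and the others in grey. Most genes lie within 1 log2 unit of 0; EGR1 and SKI are the genes called above 0, and FTL, RPL23, RACK1 and PFN1 those below.

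**Figure D4:**
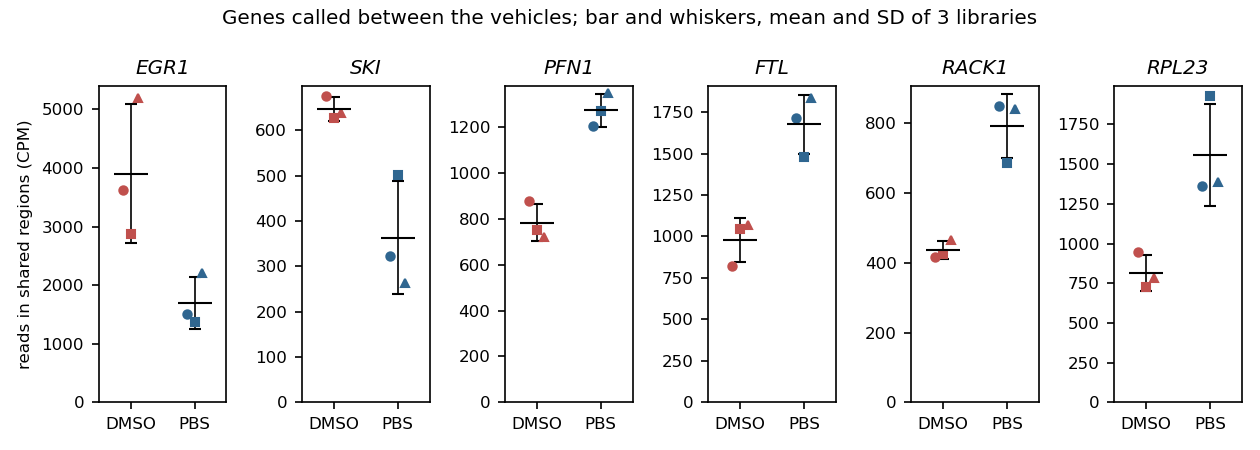
CPM of the 6 genes called between the vehicles, 1 point per library with the mean and SD of 3 libraries (black bar and whiskers), each panel starting at 0. In each gene the 3 DMSO points and the 3 PBS points do not overlap, and the widest spread is that of EGR1 in DMSO.

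These 6 calls were sensitive to single libraries. None was made without DMSO replicate 1, DMSO replicate 3 or PBS replicate 1 (183, 112 and 177 genes had an unadjusted p under 0.05), while of the 6, 1 (EGR1) was called without DMSO replicate 2, 2 without PBS replicate 3 and 6 without PBS replicate 2. DESeq2 called 8 of 551 genes to which it gave an adjusted p, the 6 among them. The direction held throughout, with log2 fold changes between 0.89 and 1.43 for EGR1, 0.63 and 1.13 for SKI, -1.08 and -0.70 for FTL, -0.99 and -0.78 for RPL23, -0.94 and -0.74 for RACK1 and -0.97 and -0.66 for PFN1. All clusters of a gene in place of its shared regions gave 2 calls, with FTL the only gene of the 6 among them.

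Of the ribosomal protein genes RPL23 passed the test, and most tested members had negative estimates. Of 84 ribosomal protein genes, 74 had a cluster in some list and 26 had a shared region to test. Of these 26, 24 had a negative log2 fold change and 8 were lower in every DMSO library, with a median of -0.35. Over all 1206 genes, 48.8% were negative, 10.5% were lower without overlap and the median was 0.01. RPL10 had a log2 fold change of -0.67 ± 0.18 (edgeR adjusted p = 0.104), RPL39 of -0.51 ± 0.18 and RPL31 of -1.12 ± 0.39 (edgeR adjusted p = 0.21 for both). RPS12 (0.01) and RPL7L1 (0.57), a ribosomal protein-like factor caught by the name pattern, were the 2 not negative. Together the 26 took 1.02%, 0.914% and 0.875% of reads in the named genes' shared regions in DMSO and 1.17%, 1.21% and 1.20% in PBS, without overlap. Among 18 elongation and initiation factors and related proteins, 15 were negative, 6 were lower without overlap and the median was -0.20. RACK1 passed, and EEF2 had a log2 fold change of -0.51 ± 0.13 (edgeR adjusted p = 0.0898). EIF4G1, the scaffold of the cap-binding complex, stood at 0.54 ± 0.24 and did not pass.

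Of the immediate early genes EGR1 passed the test, and most tested members had positive estimates. Of 41 genes on the list 13 were tested, 10 were positive, 5 were higher in DMSO without overlap and 1 lower, and the median was 0.38. Over all 1206 genes, 51.2% were positive, 10.9% were higher without overlap and 10.5% lower, and the median was 0.01. DUSP5, a nuclear phosphatase of ERK, had 754, 767.4 and 1614 CPM in DMSO and 600.9, 317.3 and 520.7 in PBS, again highest in DMSO replicate 3 (log2 fold change 1.06 ± 0.28, edgeR adjusted p = 0.102). MCL1, a short-lived survival protein, stood at 0.58 ± 0.16 (edgeR adjusted p = 0.104). MYC was 1 of 3 tested members with a negative value, beside DUSP4 (-0.26) and ZFP36L1 (-0.17), with 875.3, 853.3 and 1190 CPM in DMSO and 1697, 1243 and 1370 in PBS (log2 fold change -0.57 ± 0.17, edgeR adjusted p = 0.129). The list as a whole took 1.30%, 1.28% and 1.80% of reads in DMSO and 1.20%, 0.934% and 1.21% in PBS. Without EGR1 the other 12 took 0.940%, 0.997% and 1.28% in DMSO and 1.05%, 0.796% and 0.987% in PBS, and the vehicles overlapped.

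**Figure D5:**
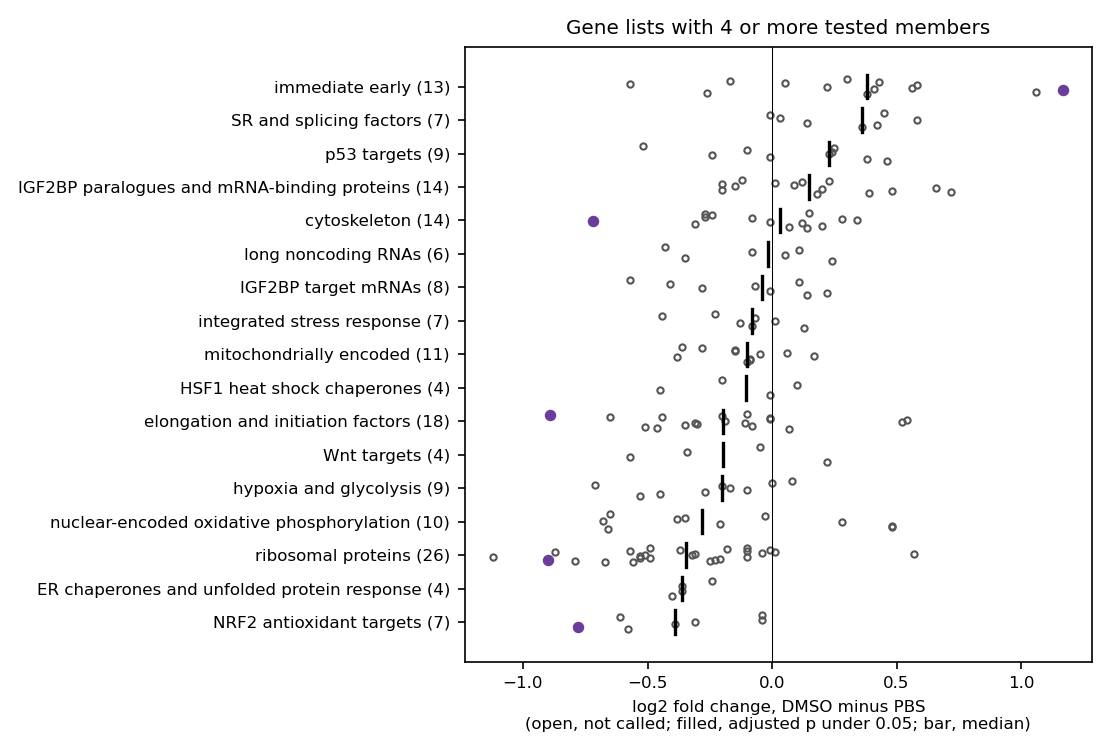
Log2 fold change (DMSO minus PBS) of each tested gene in the gene lists with at least 4 tested members (number in brackets); filled points passed an adjusted p of 0.05 and black bars are medians. Medians run from 0.38 for immediate early genes to -0.39 for NRF2 targets, and no list has more than 1 filled point.

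Stress-related lists showed small differences and 1 call between them. All 7 tested NRF2 antioxidant targets were negative and 4 were lower without overlap. Over all 1206 genes, 48.8% were negative and 10.5% were lower without overlap. FTL was the member called, and FTH1, TXN (-0.61 ± 0.24) and PRDX1 (-0.39 ± 0.23) were not. SQSTM1 stood at -0.31 ± 0.18, SRXN1 at -0.04 ± 0.20 and TXNRD1 at -0.04 ± 0.13. Together the 7 took 0.590%, 0.624% and 0.638% of reads in DMSO and 0.750%, 0.637% and 0.835% in PBS, which overlap. The 4 tested endoplasmic reticulum chaperone and unfolded protein response genes were CALR (-0.40 ± 0.15), CANX (-0.36 ± 0.11), HSPA5 (-0.36 ± 0.18) and P4HB (-0.24 ± 0.12). All 4 were lower in every DMSO library without passing (edgeR adjusted p between 0.143 and 0.36). Of 7 integrated stress response genes 5 were negative with a median of -0.08, and ATF4 stood at 0.13 ± 0.25. Of 4 heat shock chaperones, HSP90AB1 had -0.45 ± 0.14 (edgeR adjusted p = 0.143) and HSP90AA1 -0.01 ± 0.12. Of 9 p53 targets 5 were positive, with MDM2 at 0.23 ± 0.11 and CDKN1A at -0.24 ± 0.11.

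The remaining lists held 1 call. Of 9 hypoxia and glycolysis genes 8 were negative, led by PKM (-0.71 ± 0.18, edgeR adjusted p = 0.0898) and ENO1 (-0.53 ± 0.16). Of 10 nuclear-encoded oxidative phosphorylation genes 7 were negative with a median of -0.28, and of 11 mitochondrially encoded genes 9 were negative with a median of -0.10. Of 7 SR and splicing factors 6 were positive with a median of 0.36, SRSF1 at 0.58 ± 0.21 and TRA2B at 0.45 ± 0.16. Of 14 mRNA-binding proteins 10 were positive with a median of 0.15, with HNRNPU at 0.66 ± 0.19 (edgeR adjusted p = 0.133). Of 14 cytoskeleton genes 7 were positive and 7 negative, and PFN1 was the one called. Of 8 IGF2BP target mRNAs 5 were negative with a median of -0.04, of 6 long noncoding RNAs 3 were, and of 4 Wnt targets 3 were. Both tested cholesterol and fatty acid synthesis genes were negative and the 1 tested YAP-TEAD target was positive. None of the 32 mitosis genes and 68 replication-dependent histone genes had a shared region, although 27 and 33 had a cluster in some list. Some genes stand in 2 lists, and members of a list are not replicates.

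The median difference varied with base composition and, in a small number of regions, with position. In the 510 shared regions with the lowest GC content (23.1% to 36.6%) the median log2 fold change was 0.07, and in the 509 with the highest (48.3% to 75.2%) it was -0.11. Over the 2034 regions Spearman's rho between GC content and log2 fold change was -0.20, a description across regions of the same 6 libraries. The 15 shared regions within 1000 bases of a protein-coding gene start had a median of -0.41, against 0.05 over all 1353 regions in protein-coding genes of known strand. Of these 15, 10 were negative and 2 (13.3%) were lower without overlap, beside 102 of the 1353 (7.54%). The 971 regions within 3000 bases of a gene end had a median of 0.05 and the 367 elsewhere 0.06. The part of GC content, position and library set in the gene differences was not tested.

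Presence in all lists of 1 vehicle and none of the other was seen for DMSO only. In all, 1436 regions had a cluster in all 3 DMSO lists and none in a PBS list, and 0 had the reverse. The reverse needs a cluster in PBS replicate 2, whose list covered only 2501 regions. Of those, 97.4% were also in DMSO replicate 2 and 98.1% in DMSO replicate 3. Few regions could thus be in PBS alone, so these counts do not compare the vehicles. The 1436 regions held a median of 16 reads in DMSO replicate 3, against 121.5 for the shared regions, and at most 115 reads. The one with most reads in DMSO replicate 3 was in NR4A1, an immediate early nuclear receptor, at chr12:52059186-52059438, with 6, 14 and 115 reads in DMSO replicates 1 to 3. Of the 1087 named genes with such a region, 898 had a cluster elsewhere in some PBS list. Total gene counts were 374238, 960565 and 1287291 in DMSO replicates 1 to 3, and 423906, 130478 and 403352 in PBS replicates 1 to 3. A region without a cluster in a list has no read count there, so these regions were not tested between the vehicles. The part of depth was not tested either.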

How the data were processed

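The authors deposited raw counts per gene (whole numbers for 19962 entries in 1 table) and, per the file headers, a list of clusters per library with position, strand, sequence, read counts and counts of conversion events. Per the submitters' processing notes bcl2fastq 2.20.0.422, UMI-tools 1.1.1, Trimmomatic 0.30, Bowtie 0.12.7 and featureCounts 2.0.1 were used, with the builds GRCh38.p13 and hg38. The cluster caller is not given in the sources used here. The lowest read count of a cluster was 2. How reads shared by near-identical genes were counted is not given either.

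Clusters of the 6 lists were merged on the same strand when they shared at least 1 base. A cluster took the RefSeq gene (GRCh38.p14) whose span covers at least 50% of it, protein-coding genes first. All 332 clusters inside a RefSeq promoter window matched the reference sequence exactly, and promoter tables gave the strand of genes, which 23.3% of named clusters lack. RefSeq symbols of mitochondrial genes have no prefix, so that list was taken by chromosome. The tables hold no Ensembl identifiers, so count table entries are unnamed, which is why reads per named gene were tested too.

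Tests used edgeR 4.0.16 in R 4.3.3 (filterByExpr for the count table, TMM, quasi-likelihood, two-sided, Benjamini-Hochberg over all features tested, threshold 0.05) on the 6 libraries, checked on simulated counts. DESeq2 1.42.0 and limma 3.58.1 served as alternatives. The SE of a log2 fold change follows from the F statistic. Replicate numbers did not pair libraries. Genes named are the 20 with most reads, those past the threshold with counts averaging 50 or more and no overlap (up to 10 per direction, 2 where only an identifier exists), the IGF2BP genes and up to 4 members per list with the lowest adjusted p. A few further list members, NR4A1 and the printed stretches were chosen after their values were seen. Members and lists were chosen with earlier results of these data known.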

Additional observations from a re-analysis of the deposited data

How the results depend on the processing

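Under the alternatives, each of the 7 library measures kept its direction. Of the count table genes, 29 were called with DESeq2, 46 with the replicate number as a block and 282 with the library set as a random block (consensus correlation -0.134), against 92, and 12 to 123 when 1 library was left out. Same-numbered libraries did not deviate together (correlations -0.009, 0.031 and -0.044), so the block rests on a number alone. With all 15 anti-IGF2BP3 libraries 105 were called. DMSO replicate 3 alone against PBS, with 1 library in that arm, gave 66, of which 37 were among the 92. The split moved from 34.8% higher in DMSO to 72.7% without a filter on low counts and 59.1% with DMSO replicate 3 alone.

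Of the shared regions, 2 were called, and 4 with library totals, 4 with DESeq2, 5 with the block, 1 with clusters of at least 5 reads, 0 with an overlap of at least 50% of the shorter cluster, 0 when scaled by gene count totals (244 and 269 with an unadjusted p under 0.05), and 0 to 5 when 1 library was left out. Of the named genes, 2 were called with the block, 2 with all clusters of genes in all 6 lists, and 0 to 6 when 1 library was left out, against 6. The cause of these changes was not tested. The count table shares without mitochondrial genes were not run, since its entries have no names. PBS replicate 2 was the shallowest library (130478 counts).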
